A study of Tupaia belangeri chinensis with 36 samples.

Results

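MicroRNA entries without an established mouse name were followed in the testis and epididymis of the tree shrew, a small mammal related to primates. The authors' miRNA table held 1210 entries. Of these, 491 carried a mouse name alone and 719 carried a prefix that marks a new entry. The 101 entries described here were selected on 2 measures: this prefix, and a mean of at least 10 CPM, the count scaled to the column total, over 16 measured libraries. Their mean levels are therefore a description and not a finding. Of the 101 members, 20 had a running number after the prefix and 81 had a species code with a miRNA number, as in databases of known miRNAs. Below, each member is called by the part of its name after the prefix. Thus hsa-miR-15a-5p means the prefixed row of that name, and not the human miRNA. The description of these rows as lacking a mouse name had exceptions, since 5 members carried the mouse code mmu behind the prefix.

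A miRNA is a short RNA cut from a hairpin precursor, and the mature strand is named for the arm of the hairpin from which it comes (5p or 3p). Loaded into an Argonaute protein, it recognises messenger RNAs mainly through the seed near its 5′ end, and related miRNAs share a seed. In the testis miRNAs act in spermatogonia, meiotic cells and spermatids, and along the epididymis the lining epithelium differs in miRNA content between segments. The caput (head) of the epididymis receives sperm from the testis, and the cauda (tail) stores them.

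Tissue came from mature male tree shrews of 1.5 to 2 years, in a reproductive season (R, April 2024) and a non-reproductive season (NR, December 2023). The groups were TESTIS-R, TESTIS-NR, CAPUT-R, CAPUT-NR, CAUDA-R and CAUDA-NR, with 3 biological replicates each in the labels. Season and collection date cannot be told apart. In the miRNA table the columns TESTIS-NR 2 and CAPUT-NR 2 matched, for 100% of entries and within 0.5 counts, an average of the 2 columns beside them, and were left out. That leaves n = 2 in TESTIS-NR and CAPUT-NR and n = 3 in the other groups.

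The 16 libraries held 2166152 to 14756858 counts. The 2 remaining TESTIS-NR libraries were not alike. Mouse-named miR-34 and miR-449 entries, abundant in meiotic and later germ cells, summed to 5610 to 7808 CPM in TESTIS-R, against 340 CPM in TESTIS-NR 1 and 4592 CPM in TESTIS-NR 3 (3 of 4 listed markers in the table). The epithelial list of the miR-200 family and miR-141-3p (4 of 4) summed to 198 to 3124 CPM in the testis, 82065 to 112707 in the caput, and 59792 to 91899 for cauda libraries. The list for skeletal and heart muscle (4 of 4) summed to 3228 to 8139 CPM in the cauda, and to at most 1052 CPM elsewhere. No marker in the table was at 0 in all libraries. In whole tissue, fewer cells of a type and less RNA per cell cannot be told apart.

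Species codes of the 81 members stood for a wide range of organisms. There were 39 codes, led by hsa (human) with 20 members, mmu (mouse) with 5, and bta (cow) and mml (rhesus macaque) with 4 each. Mammalian codes covered 49 members, plant codes 14, invertebrate codes 12, other vertebrates 4 and viruses 2. Counts were distributed otherwise than names. As the mean over libraries of their share in the members' counts, mammalian codes took 35.9%, codes of other vertebrates 31.1%, invertebrate codes 24.3%, plant codes 1.87% and virus codes 0.427%. The share of other vertebrates, almost all of it in aca-miR-5435b-3p, was 0.203% to 1.80% in testis libraries and 69.7% to 79.5% in caput libraries. Members with a mammalian code had counts in all 16 libraries in 28 of 49 cases, those with a plant code in 3 of 14. The tree shrew's own code, tch, stood in 2 members, tch-miR-9771m and tch-miR-9771b. In the RefSeq gene table of the tree shrew, 17 of the 81 members matched a listed miRNA gene by number. The match allowed a further digit after the number, so some may be matches to another number. Sequence and arm were not compared.

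At the edge of the selection, bta-miR-6523a and hsa-miR-634 lay just inside with means of 11.6 and 10.2 CPM, and osa-miR820a and ptc-miR6451 just outside with 9.87 and 9.69 CPM. These neighbours were unlike in shape. bta-miR-6523a was detected in all libraries at 5.56 to 20.4 CPM, whereas hsa-miR-634 had 80.5 CPM in CAPUT-R 2, 51.6 in CAPUT-NR 3, 30.8 in CAUDA-R 1 and 0 in the other 13 libraries.

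Together the members held 9.53% to 10.8% of the counts in TESTIS-R libraries and 9.59% and 9.88% in TESTIS-NR. In the caput they held 4.77% to 16.2% in R and 8.52% and 9.47% in NR. In the cauda the shares were lower, at 3.0% to 4.11% in R and 1.77% to 3.48% in NR. A few members carried much of it, with shares that differed by tissue. Of the members' counts in a library, aca-miR-5435b-3p held 0.108% to 1.78% in the testis, 69.6% to 79.5% in the caput and 12.6% to 28.4% among cauda libraries. For ppc-miR-8228-3p these shares were 20.5% to 42.6%, 10.8% to 14.0% and 9.08% to 30.2%. By group means, 70 of the 101 members were highest in the testis, 11 were caput-high and 20 cauda-high. Among the 224 mouse-named entries of at least 10 CPM, the same count was 85, 54 and 85.

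**Figure D1:**
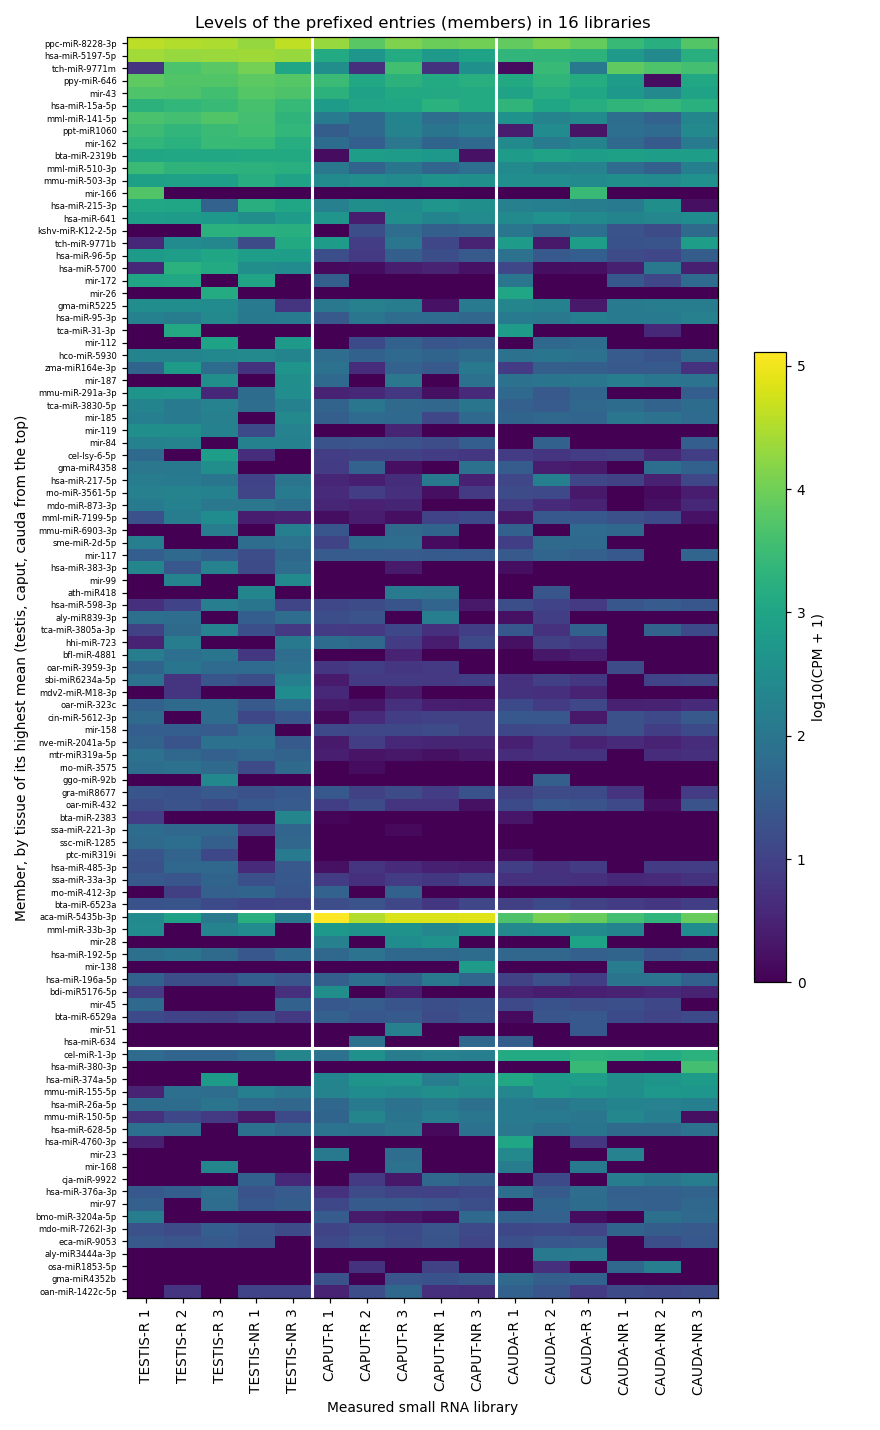
Levels of the 101 members (rows) in 16 measured libraries (columns), as log10(CPM + 1) by colour. Rows are grouped by the tissue of their highest mean, 70 testis, 11 caput and 20 cauda from the top, and dark cells are libraries at or near 0.

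The most abundant member, aca-miR-5435b-3p, was an epididymal RNA with its peak in the caput. It had 261, 797 and 108 CPM in TESTIS-R 1 to 3 and 1706 and 117 CPM in TESTIS-NR 1 and 3. In the caput it reached 128296, 33219 and 66062 CPM in R and 66284 and 73777 CPM in NR. Cauda levels were between these, at 4877, 11663 and 8224 CPM in R and 3860, 2238 and 8171 CPM in NR, and none of the 3 tissues overlapped. The mean of CAPUT-R was 75859 ± 48289 CPM (SD, n = 3) and that of CAPUT-NR 70031 ± 5298 CPM (SD, n = 2), so the seasons overlapped. Its log2 change was -7.75 ± 1.14 in TESTIS minus CAPUT (SE, adjusted p = 0.00101), -3.58 ± 0.94 in TESTIS minus CAUDA (0.0140) and 3.98 ± 0.51 in CAPUT minus CAUDA (0.000529). Of its summed level the testis held 0.812%, the caput 91.1% and the cauda 8.12%.

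The next member, ppc-miR-8228-3p, was highest in the testis. It had 30875 to 40074 CPM in TESTIS-R and 19681 and 42087 CPM in TESTIS-NR, against 6328 to 21157 CPM in the caput and 1609 to 12403 CPM in the cauda. The testis libraries did not overlap with the cauda (log2 change 2.27 ± 0.39, SE, adjusted p = 0.00132), and overlapped with the caput (0.75 ± 0.40, adjusted p = 0.160).

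A testis-high group held hsa-miR-5197-5p, mml-miR-141-5p, mir-162, mml-miR-510-3p and hsa-miR-96-5p. hsa-miR-5197-5p had 25328, 20621 and 21784 CPM in TESTIS-R and 23673 and 20989 CPM in TESTIS-NR. No caput library exceeded 1370 CPM and no cauda library 2296 CPM. The testis and epididymal libraries of this member were thus far apart, with log2 changes of 3.93 ± 0.44 against the caput (SE, adjusted p = 0.000255) and 3.83 ± 0.48 against the cauda (0.000216). mml-miR-141-5p had 3889 to 5287 CPM in TESTIS-R and 3875 and 2055 CPM in TESTIS-NR, against 55.5 to 200 CPM in the caput and 38.7 to 429 CPM in the cauda. mir-162, the second most abundant numbered member, had 1859 to 2837 CPM in TESTIS-R and 2612 and 1535 CPM in TESTIS-NR, against 32.7 to 105 CPM in the caput and 26.8 to 273 CPM in the cauda. These last 2 rows moved together: mir-162 had between 0.478 and 0.764 of the counts of mml-miR-141-5p in each of 16 libraries, and their log2 levels had Pearson's r = 0.996 (n = 16, libraries that share tissue and depth). mml-miR-510-3p held 0.0704 to 0.132 of the counts of hsa-miR-5197-5p (r = 0.994). Whether such rows count reads of a common precursor was not tested.

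mir-43, the most abundant numbered member, and ppy-miR-646 had milder slopes. mir-43 had 3707 to 5105 CPM in TESTIS-R and 5705 and 4829 CPM in TESTIS-NR. It had 852 to 1952 CPM in the caput and 250 to 1528 CPM in the cauda, and passed the test against both (log2 change 1.18 ± 0.35 and 2.38 ± 0.40, SE, adjusted p = 0.0272 and 0.00114). ppy-miR-646 had 5212 to 7010 CPM in TESTIS-R and 6615 and 5819 CPM in TESTIS-NR, all above the 1116 to 3068 CPM of the caput. In the cauda it had 1243 to 2165 CPM in R, and 638, 0.469 and 1152 CPM in NR. The second of these values is 6 counts, and neither comparison with the testis passed (adjusted p = 0.0643 and 0.0992).

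tch-miR-9771m was among the most variable of the abundant members. In TESTIS-R it had 4.73, 4555 and 6294 CPM, and in TESTIS-NR 10979 and 1034 CPM. In CAPUT-R it had 330, 4.12 and 3720 CPM, in CAPUT-NR 4.71 and 372 CPM, in CAUDA-R 0.417, 2851 and 117 CPM, and in CAUDA-NR 7271, 4966 and 3884 CPM. Every group but CAUDA-NR spanned more than 10-fold. No tissue comparison passed for it (adjusted p = 0.469 to 0.818), although RefSeq lists a tree shrew gene of this name. Its relative tch-miR-9771b also swung within groups, with 650, 1.27 and 736 CPM in CAUDA-R and 18.1, 20.7 and 729 CPM in CAUDA-NR.

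**Figure D2:**
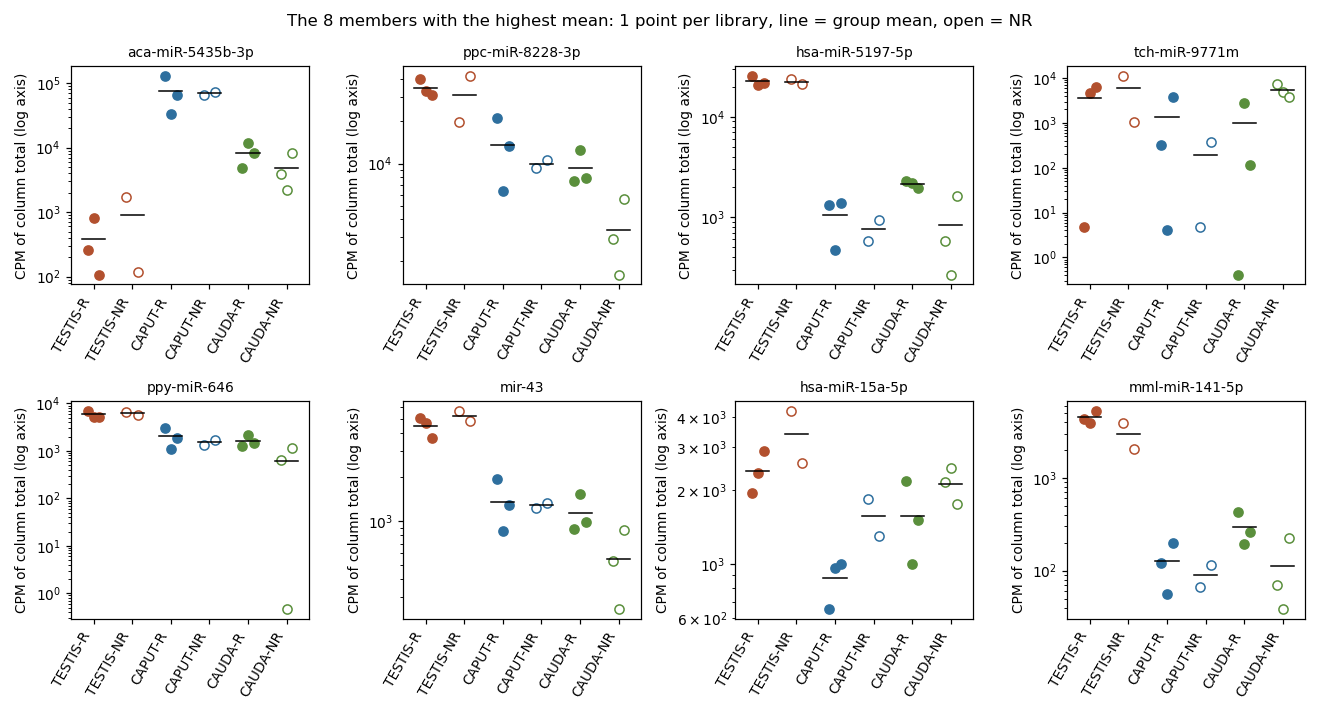
The 8 members with the highest mean over 16 libraries, as CPM of the column total on a log axis, 1 point per library with the group mean as a line (filled points R, open points NR). aca-miR-5435b-3p peaks in the caput, hsa-miR-5197-5p and mml-miR-141-5p in the testis, and tch-miR-9771m ranges from 0.417 to 2851 CPM within CAUDA-R.

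Many members were present in some libraries of a group and absent from others. Counts were above 0 in all 16 libraries for 40 of the 101 members (39.6%), against 211 of the 224 mouse-named entries of at least 10 CPM (94.2%). At 0 in 8 libraries or more were 30 members (29.7%), against 0 mouse-named entries. At like levels, of entries with a mean of 100 to 1000 CPM, 16 of 26 members and 76 of 79 mouse-named entries were detected everywhere, and of those of 30 to 100 CPM, 8 of 28 and 42 of 43. From 10 to 30 CPM these were 8 of 39 and 38 of 47. From 1000 CPM up there was no gap in detection, with 8 of 8 and 55 of 55. Even there, 2 of the 8 members differed at least 100-fold between libraries of a group, against 0 of the 55 mouse-named entries. A count of 0 allows up to 3 counts, which is 0.203 to 1.39 CPM at these depths, counting error only.

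Within a group the ratio of the highest to the lowest library was large for most members. At its widest it was at least 100-fold for 51 of the 101 members (50.5%) and for 2 of the 224 mouse-named entries (0.893%), with the level of 3 counts in place of lower values. Its median was 102-fold over members and 2.90-fold over mouse-named entries. Numbered members swung more often than those with a species code, 15 of 20 (75%) against 36 of 81 (44.4%). At 0 in one library and at 10 CPM or more in another library of the same group were 17 of 20 numbered members (85%), 33 of 81 species-code members (40.7%) and 4 mouse-named entries (1.79%). No test was made of these shares, since detection is part of the mean that chose the members.

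**Figure D3:**
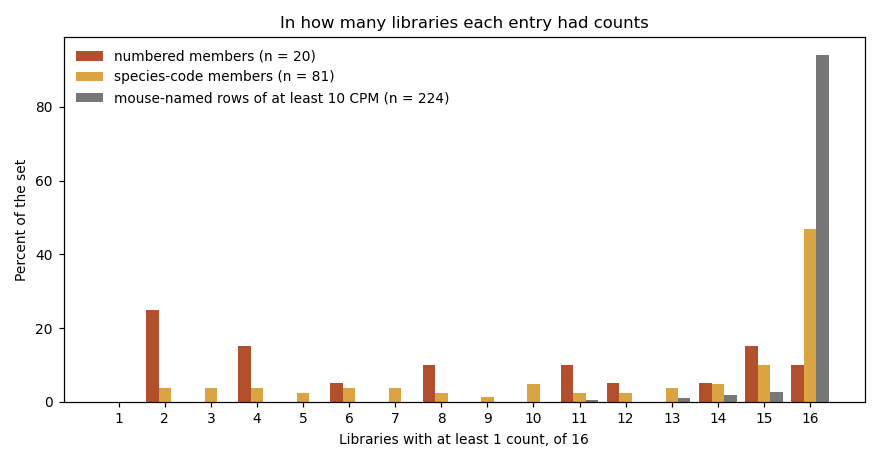
Percent of entries (vertical axis) with counts in a given number of the 16 libraries (horizontal axis), for 20 numbered members, 81 species-code members and 224 mouse-named entries of at least 10 CPM. Detection in all 16 libraries was reached by 94.2% of the mouse-named entries and by 39.6% of the members.

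The starkest cases were confined to 2 libraries of different groups or tissues. mir-166, the third most abundant numbered member, had 5240 CPM in TESTIS-R 1 and 2912 CPM in CAUDA-R 3 and 0 counts in the other 14 libraries. hsa-miR-380-3p had 2834 CPM in CAUDA-R 3 and 3872 CPM in CAUDA-NR 3, and mir-26 had 1418 CPM in TESTIS-R 3 and 1033 CPM in CAUDA-R 1, both again with 0 elsewhere. In none of these did a full group carry the RNA. mir-138 had 630 CPM in CAPUT-NR 3 and 142 CPM in CAUDA-NR 1, mir-99 had 193 CPM in TESTIS-R 2 and 283 CPM in TESTIS-NR 3, and mir-51 had 166 CPM in CAPUT-R 3 and 24.2 CPM in CAUDA-R 3. hsa-miR-4760-3p held 99.3% of its summed CPM in a single library, CAUDA-R 1, with 987 CPM. bdi-miR5176-5p held 93.0% of its summed CPM in CAPUT-R 1, with 329 CPM, and had at most 6.55 CPM elsewhere. aly-miR3444a-3p had 117 and 120 CPM in CAUDA-R 2 and 3 and 0 in all others, CAUDA-R 1 among them.

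The reverse, a single gap in a group, was also common. In groups of 3 libraries, 24 members had 1 library at least 100-fold below both others, in 26 such gaps. hsa-miR-5700 had 2.91 CPM (8 counts) in TESTIS-R 1 and 1352 and 1793 CPM in the other TESTIS-R libraries. bta-miR-2319b had 0.474 CPM (7 counts) in CAPUT-R 1 and 630 and 699 CPM in the other CAPUT-R libraries. mir-172, the fourth most abundant numbered member, had 1042 and 1114 CPM in TESTIS-R 1 and 2 and 0 in TESTIS-R 3. The gaps were spread over 11 of the 12 libraries in groups of 3. Sample quality and how the authors assigned reads to rows were not tested as sources.

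Mouse-named rows of the same number and arm existed for 13 of the 81 species-code members, and their behaviour fell into several kinds. mmu-miR-155-5p, named for a miRNA of activated leukocytes, followed its mouse-named namesake closely. The ratio of their counts was 1.04 to 1.13 in 15 libraries. In TESTIS-R 1 it was 0.0220, with 2.18 CPM in the prefixed row and 99.4 CPM in the mouse-named one. mmu-miR-150-5p, named for a lymphocyte miRNA, had 8.43 to 23.5 times the counts of its namesake in the libraries where the namesake had any, except in CAUDA-NR 3. There the prefixed row had 4 counts, or 0.606 CPM, against 102 to 233 CPM in the other cauda libraries, while the ratio to the namesake was 0.0313.

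Other pairs of the same number and arm ran in opposite directions between the tissues. The miR-141 family is known from epithelium, and mmu-miR-141-5p had 0 to 24.3 CPM in the testis against 256 to 453 CPM in the caput and 167 to 264 CPM in the cauda, the same direction as the epithelial list. Its prefixed counterpart mml-miR-141-5p was testis-high, as given above. Over the 16 libraries their log2 levels had Pearson's r = -0.82, a description across libraries that share tissue and depth. hsa-miR-96-5p had 603 to 1052 CPM in TESTIS-R and 741 and 717 CPM in TESTIS-NR, against 6.30 to 34.3 CPM in the caput and 11.4 to 81.5 CPM in the cauda. Its mouse-named row had 0 to 7.15 CPM in the testis, 20.1 to 57.3 CPM in the caput and 63.3 to 185 CPM in the cauda (r = -0.83). ssa-miR-221-3p had 49.0 to 61.5 CPM in TESTIS-R and 6.13 and 45.9 CPM in TESTIS-NR, with 4 counts in the whole caput and 0 in the cauda, where mmu-miR-221-3p was highest (r = -0.85). For all 3 names the prefixed row was called higher in the testis than in either epididymal segment, and the mouse-named row lower. The mouse-named log2 changes were -5.40 ± 1.10, -5.17 ± 1.32 and -1.54 ± 0.32 for miR-141-5p, miR-96-5p and miR-221-3p in TESTIS minus CAPUT (SE, adjusted p = 0.00473, 0.0143 and 0.00489). The prefixed ones were 4.48 ± 0.48, 4.60 ± 0.53 and 8.45 ± 1.29 (adjusted p = 0.000191, 0.000267 and 0.00111).

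Other pairs showed little relation. The log2 levels of hsa-miR-196a-5p and its mouse-named row had r = 0.03, those of tca-miR-31-3p r = 0.20 and those of hsa-miR-485-3p r = 0.39, over 16 libraries each. With their own namesakes, hsa-miR-15a-5p and hsa-miR-192-5p had higher values, r = 0.56 and 0.66. So did hsa-miR-217-5p and hsa-miR-376a-3p, with r = 0.68 and 0.885.

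A further set tracked mouse-named rows. hsa-miR-26a-5p, named for an abundant miRNA of many tissues, had 0.00736 to 0.0165 of the counts of mmu-miR-26a-5p (r = 0.918). cel-miR-1-3p, with the nematode code of a miRNA that is conserved in muscle, had 0.382 to 0.949 of the counts of mmu-miR-1a-3p (r = 0.991). That pair was looked at after its values were seen. hsa-miR-15a-5p matched another number: its counts were 1.00 to 1.01 times those of mmu-miR-322-5p in each library, and miR-15a and miR-322 are known members of a family with a common seed. hsa-miR-192-5p had 1.01 to 1.05 times the counts of mmu-miR-215-5p, likewise miRNAs known to share a seed. These were the only 2 members within 5% of a mouse-named row in every library, and 0 members had counts identical to another row. The results for these 2 rows are thus not separate from those of mmu-miR-322-5p and mmu-miR-215-5p.

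**Figure D4:**
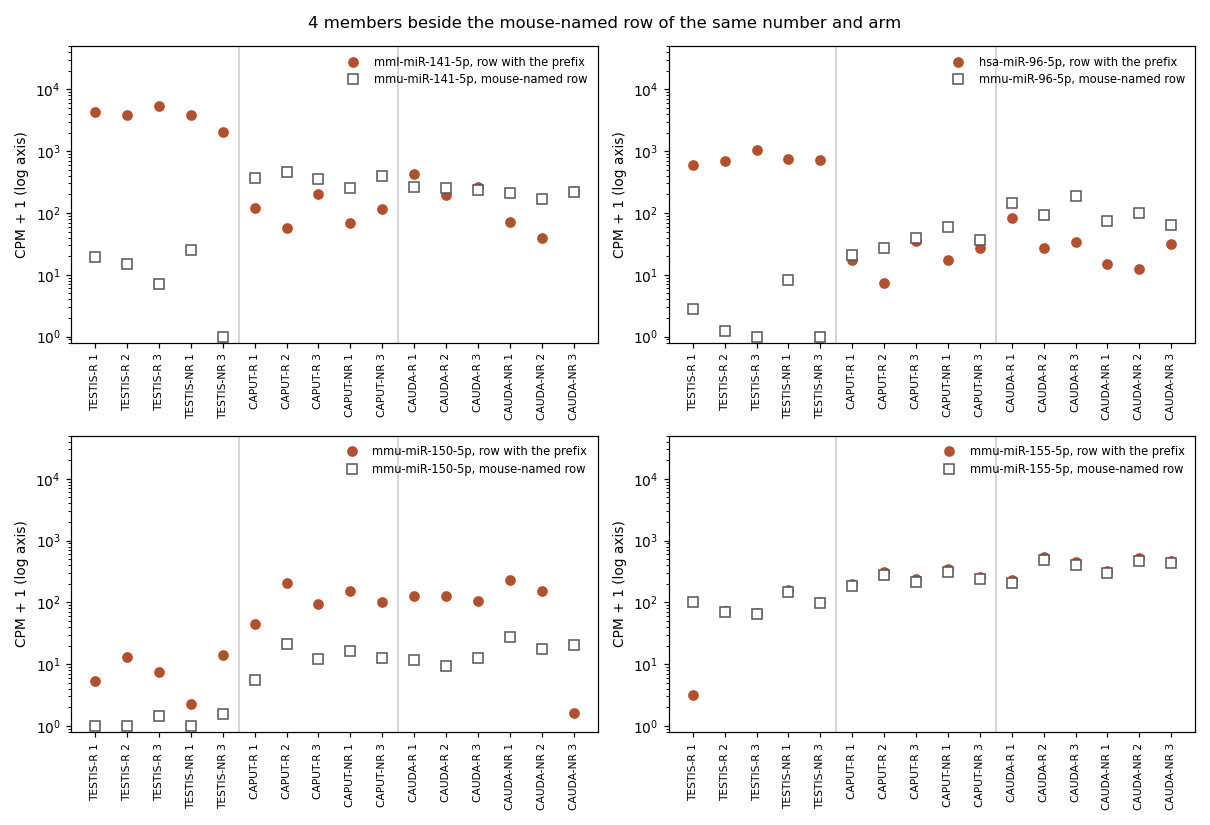
Levels in 16 libraries (horizontal axis) of 4 members (filled circles) and of the mouse-named row of the same number and arm (open squares), as CPM + 1 on a log axis. For miR-141-5p and miR-96-5p the 2 rows run in opposite directions between testis and epididymis, and for miR-150-5p and miR-155-5p the prefixed row drops in 1 library, CAUDA-NR 3 and TESTIS-R 1.

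Between tissues, the question was where these entries are most abundant, with season as a covariate. Of the 92 members that passed the filter on low counts in TESTIS minus CAPUT, 28 were called higher and 8 lower in the testis by edgeR's quasi-likelihood test at an adjusted p under 0.05. Over all 677 entries tested, 16.5% were higher and 18.2% lower. In TESTIS minus CAUDA, 29 of 97 members were higher and 6 lower, against 18% and 18.1% of 713 entries. Many low members could pass the filter only through the tissue in which they are high, so these counts lean towards calls. Of the 40 members detected in every library, 14 were higher and 7 lower against the caput. Of these 40, 16 were higher and 5 lower against the cauda. Their median log2 change was 1.03 and 1.22. Among all 307 entries detected in every library the medians were -0.11 and -0.07. Of these, 72 were higher and 89 lower against the caput, and 85 higher and 90 lower against the cauda. The 40 members had also passed the mean of 10 CPM, a rule not set for the 307 entries. Low rows can reach that mean through the testis. For example, oar-miR-323c had group means of 52.6 and 43.0 CPM in the testis, against 2.10 and 1.64 CPM in the caput. The lean to the testis is therefore not free of the selection. Higher than in both epididymal segments were 23 members, 82.1% of the 28 and 79.3% of the 29, and the 2 comparisons share the testis libraries. This overlap was not counted over all entries, so nothing about the members is read from it.

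The split depended on scaling. With library totals in place of TMM, the median log2 change of all entries moved to 1.00, against 0.40 with TMM, in TESTIS minus CAPUT, and the members' calls were 32 higher and 4 lower, against 28 and 8 with TMM. In TESTIS minus CAUDA the median was 0.68 with library totals and 0.47 with TMM, and calls were 30 higher and 6 lower. Without TESTIS-NR 1 the calls were 33 and 34 in the 2 comparisons, and without TESTIS-NR 3 they were 32 and 33. With NR libraries alone, 2 in each of testis and caput, 0 members were called in TESTIS minus CAPUT and 25 in TESTIS minus CAUDA. Every TESTIS minus CAPUT call of a member, given above or below, was thus lost in that setting. The call of aca-miR-5435b-3p against the cauda was also lost there (adjusted p = 0.182).

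By name form, 25 of 76 species-code members were higher and 8 lower in the testis against the caput, and 3 of 16 numbered members were higher and 0 lower. Against the cauda these counts were 26 higher and 6 lower of 80, and 3 higher and 0 lower of 17. The called numbered members, named here after their values were seen, were mir-43, mir-119 and mir-162 in both comparisons. No test was made of a difference between the name forms.

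**Figure D5:**
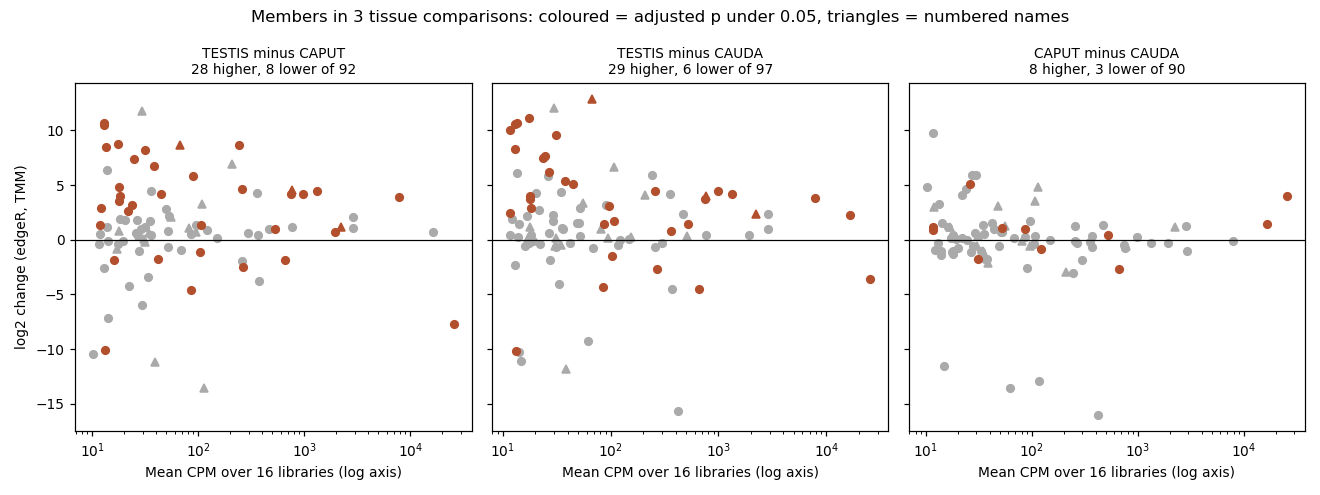
log2 change of members (vertical axis) against mean CPM over 16 libraries (horizontal log axis) in 3 tissue comparisons, with called members coloured and numbered names as triangles. Called members lie mostly above 0 in TESTIS minus CAPUT (28 of 36) and TESTIS minus CAUDA (29 of 35), and 11 of 90 were called in CAPUT minus CAUDA.

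Among called members whose libraries did not overlap, the largest rises in the testis were of rows with few or no counts in the segment compared. rno-miR-3575 had 68.5, 81.5 and 56.8 CPM in TESTIS-R and 13.8 and 57.5 CPM in TESTIS-NR. It had 4 counts in the caput in all and 0 in the cauda, so its level in the testis was at least 935-fold higher than in the cauda, taking 3 counts over the 6 cauda libraries as the limit. Its log2 change against the caput was 8.79 ± 1.27 (SE, adjusted p = 0.000912). mir-119 had 356, 332 and 178 CPM in TESTIS-R and 13.3 and 185 CPM in TESTIS-NR. Caput counts of mir-119 were confined to CAPUT-R 3, at 2.33 CPM, and the cauda had 0, at least 3577-fold below the testis. Both rows, and ssa-miR-221-3p at at least 724-fold, were lowest in TESTIS-NR 1, the testis library in which the germ-cell list was also lowest at 340 CPM. The log2 levels of these rows followed each other (r = 0.986 to 0.995), so they are not separate cases. Not all testis-high members were low there: mir-43 had its highest level in that library, 5705 CPM. Whether that list's level has a part in these values was not tested.

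hsa-miR-383-3p had 210, 23.8 and 185 CPM in TESTIS-R and 14.1 and 65.7 CPM in TESTIS-NR. It had 5 counts in the cauda, all in CAUDA-R 1, and its log2 change against the cauda was 9.55 ± 1.22 (SE, adjusted p = 0.000246). hsa-miR-5700 reached 330 and 284 CPM in TESTIS-NR beside the TESTIS-R values above, and had at most 2.13 CPM in the caput and 0.566 to 112 CPM in the cauda. The testis and caput libraries did not overlap in spite of the gap in TESTIS-R 1 (log2 change 8.69 ± 1.57, adjusted p = 0.00268). Only 2 members were found in the testis alone. These were mir-99, in the 2 libraries named above, and ssc-miR-1285. The latter had 58.6, 67.9 and 33.7 CPM in TESTIS-R and 0 and 47.6 CPM in TESTIS-NR.

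Among members lower in the testis, without overlap, than in a segment were aca-miR-5435b-3p, above, and those given next. mmu-miR-150-5p had 4.37, 12.1 and 6.46 CPM in TESTIS-R and 1.28 and 13.2 CPM in TESTIS-NR, against 43.2 to 208 CPM in the caput (log2 change -4.57 ± 0.65, SE, adjusted p = 0.000853). mmu-miR-155-5p had 2.18 to 71.5 CPM in TESTIS-R and 158 and 102 CPM in TESTIS-NR, against 195 to 340 CPM in the caput and 231 to 546 CPM in the cauda. Its change of -2.52 ± 0.76 against the caput (adjusted p = 0.0296) was lost in 14 of 20 alternatives, with adjusted p of 0.00255 to 0.167. Among them were the fits without TESTIS-R 2, TESTIS-R 3 or TESTIS-NR 3 and without any 1 of the 5 caput libraries. The mouse-named row, without the gap in TESTIS-R 1, changed by -1.98 ± 0.30 (adjusted p = 0.00102). Against the cauda the prefixed row changed by -2.67 ± 0.78 (adjusted p = 0.0223), and lost this call in 3 of 21 alternatives. The leukocyte list (4 of 4, with both mouse-named rows among them) summed to 464 to 1522 CPM in the testis, 1057 to 2846 CPM in the caput, and 1932 to 8275 CPM for cauda libraries. Its part in these 2 members was not tested. bta-miR-6529a had 9.23 to 13.1 CPM in TESTIS-R and 13.8 and 6.48 CPM in TESTIS-NR, against 14.4 to 36.7 CPM in the caput. That is a log2 change of -1.81 ± 0.47 (adjusted p = 0.0155), and without CAPUT-NR 3 the call was lost, with adjusted p of 8.78e-05 to 0.379 over 20 alternatives.

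cel-miR-1-3p was highest in the cauda. It had 60.4, 44.4 and 45.7 CPM in TESTIS-R and 66.9 and 209 CPM in TESTIS-NR. The caput had 83.4 to 369 CPM in R and 180 and 154 CPM in NR, and the cauda 1340 to 1809 CPM in R and 1337 to 1849 CPM in NR. The cauda libraries stood above all others, with log2 changes of -4.52 ± 0.41 in TESTIS minus CAUDA (SE, adjusted p = 4.55e-05) and -2.72 ± 0.27 in CAPUT minus CAUDA (adjusted p = 0.000112), called under all 21 alternatives of each. The muscle list was highest in the cauda and in TESTIS-NR 3 among testis libraries, as this member was, and its part was not tested. That list holds mmu-miR-1a-3p and mmu-miR-206-3p, whose log2 levels cel-miR-1-3p followed (r = 0.991 and 0.979). The likeness of member and list is therefore not a separate observation. hsa-miR-26a-5p was lower in the testis than in the cauda by -1.45 ± 0.28 (adjusted p = 0.00241), at 46.5 to 89.6 CPM against 101 to 198 CPM.

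The caput and the cauda differed in fewer members. Of 90 tested, 8 were higher and 3 lower in the caput (12.2% in either direction), against 12.7% and 8.55% of all 620 entries. The members' share was thus below the background in each direction, and no test was made of that difference. hsa-miR-192-5p, named for a miRNA of intestinal and renal epithelium, had 50.3 to 85.5 CPM in the caput and 20.4 to 48.2 CPM in the cauda, a log2 change of 1.08 ± 0.21 (SE, adjusted p = 0.00494) that was lost with library totals and with either season alone. Lower in the caput were hsa-miR-376a-3p and hsa-miR-95-3p. The first, named for a miRNA of an imprinted cluster, had 4.27 to 14.6 CPM in the caput and 26.8 to 66.1 CPM in the cauda (-1.78 ± 0.33, adjusted p = 0.00323). hsa-miR-95-3p had 25.4 to 102 CPM in the caput and 110 to 163 CPM in the cauda. Its change of -0.86 ± 0.25 (adjusted p = 0.0358) was lost in 10 of 21 alternatives, among them the fits without CAPUT-R 3, CAPUT-NR 1, CAPUT-NR 3, CAUDA-R 3 or CAUDA-NR 3. These counts rested on scaling and on single libraries. With library totals 2 members were higher and 4 lower in the caput, against 8 and 3 with TMM, and the median log2 change of all entries was -0.34, against 0.05 with TMM. The 11 calls became 6 without CAPUT-R 1, 7 without CAPUT-R 3, 7 without CAPUT-NR 1, 6 without CAPUT-NR 3, 6 without CAUDA-R 3 and 7 without CAUDA-NR 3.

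The study's own comparison was between the seasons within each tissue. In the testis, edgeR called 0 of 83 members and 0% of all 496 entries. At an unadjusted p under 0.05 there were 3 members, against 7.26% of the entries, and DESeq2 called 3 members, against 4.91% of 489 entries with an adjusted p. gma-miR4358 had 105, 114 and 331 CPM in TESTIS-R and 0 in both TESTIS-NR libraries, at least 456-fold higher in R (3 counts over the group, adjusted p = 0.174). Without TESTIS-NR 1 this bound was 217-fold. mml-miR-7199-5p had 18.2, 138 and 309 CPM in TESTIS-R, against 1.53 and 1.97 CPM in TESTIS-NR (log2 change 6.41 ± 1.53, SE, adjusted p = 0.402). Neither row passed, although groups did not overlap. In the other direction cja-miR-9922 had 0 in TESTIS-R and 37.6 and 2.82 CPM in TESTIS-NR (adjusted p = 0.476). cel-miR-1-3p was lower in TESTIS-R by -1.52 ± 0.63 (adjusted p = 0.701), at the levels given above. edgeR also called 0 members without TESTIS-NR 1 and 0 without TESTIS-NR 3.

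In the caput, edgeR called 0 of 81 members and 0% of 534 entries. Unadjusted p under 0.05 was reached by 5 members, against 4.49% of the entries, and DESeq2 called 6 members, against 2.84% of 529 entries. sme-miR-2d-5p had 10.2, 62.9 and 65.6 CPM in CAPUT-R, against 0.444 and 0 CPM in CAPUT-NR (adjusted p = 0.425), and mdo-miR-873-3p had 2.58, 1.94 and 2.33 CPM in CAPUT-R and 0 in CAPUT-NR (adjusted p = 0.317). mml-miR-7199-5p, higher in TESTIS-R, ran the other way here, with 0.542, 1.58 and 0.604 CPM in CAPUT-R and 9.59 and 12.9 CPM in CAPUT-NR (-3.77 ± 0.54, adjusted p = 0.307). hsa-miR-15a-5p had 655, 967 and 1001 CPM in CAPUT-R and 1839 and 1307 CPM in CAPUT-NR. Its change of -0.93 ± 0.25 (adjusted p = 0.564) is also that of mmu-miR-322-5p, for the reason given above.

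In the cauda 3 of 72 members were higher and 0 lower in R, against 2.2% and 0.879% of 455 entries. gma-miR4352b had 57.6, 33.7 and 37.4 CPM in CAUDA-R and 0 in all 3 CAUDA-NR libraries, at least 371-fold higher in R (3 counts over the group, adjusted p = 0.0171). It was at 0 in the testis and had 0 to 27.3 CPM in the caput in both seasons. mdv2-miR-M18-3p had 4.59, 4.11 and 2.28 CPM in CAUDA-R and 0 in CAUDA-NR, at least 31.6-fold higher (adjusted p = 0.0493). Without CAUDA-NR 2 the bounds of these 2 rows were 188-fold and 16-fold. Its selection rested on TESTIS-NR 3, which held 302 CPM and 93.8% of its summed level. oar-miR-323c, named for a sheep miRNA of an imprinted cluster, had 12.8, 6.80 and 11.1 CPM in CAUDA-R, against 1.99, 2.03 and 3.33 CPM in CAUDA-NR (log2 change 2.09 ± 0.35, SE, adjusted p = 0.0493). In all 3 rows every CAUDA-R library was above every CAUDA-NR library. The rows at 0 in CAUDA-NR could pass the filter only through CAUDA-R, so nothing is read from the count of 3 against the background. Of the 40 members detected in every library, 1 was called, oar-miR-323c. It was also the only call among all 302 such entries tested, which include the members.

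These calls changed with single libraries. There were 4 without CAUDA-R 1, 1 without CAUDA-R 2, 0 without CAUDA-R 3, 0 without CAUDA-NR 1, 0 without CAUDA-NR 2 and 10 without CAUDA-NR 3. With a replicate block there were 0, with all 16 libraries in 1 fit 0, and with DESeq2 10, against 11.8% of 449 entries with an adjusted p. The block joined same-numbered libraries of different collection dates, which the design does not pair. Next in order were 2 members lower in R. mdo-miR-7262l-3p had 11.7, 12.2 and 10.6 CPM in CAUDA-R and 44.1, 31.2 and 25.9 CPM in CAUDA-NR (-1.51 ± 0.28, SE, adjusted p = 0.0502). hsa-miR-196a-5p, named for a miRNA of the HOX clusters, had 9.07, 17.7 and 7.97 CPM in CAUDA-R and 92.4, 88.2 and 37.7 CPM in CAUDA-NR (-2.61 ± 0.57, adjusted p = 0.0829). Their libraries did not overlap between the seasons, and neither passed. Fewer members were at 0 counts in CAUDA-R, 21 to 23 per library of 7061843 to 9591069 counts, than in CAUDA-NR, 33 to 39 per library of 6528407 to 12781794 counts. No test was made of that difference.

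A season change that differed between tissues was called for 0 of 101 members in each of 3 comparisons by edgeR's interaction test, against 0% of 784 entries in TESTIS minus CAPUT, 0.128% in TESTIS minus CAUDA and 0% in CAUDA minus CAPUT. Unadjusted p under 0.05 was reached by 12, 14 and 6 members in the same comparisons, against 7.65%, 9.69% and 3.44% of the entries. DESeq2 called 8, 12 and 9 members, against 4.72%, 5.02% and 3.26% of the entries with an adjusted p. The opposite signs of mml-miR-7199-5p in testis and caput gave a difference of 9.93 ± 2.22 on the log2 scale (SE, adjusted p = 0.147), the smallest p of any member in these tests, and it was named for that after its values were seen.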

How the data were processed

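Only the miRNA table was used. Its values are raw counts per entry that the authors deposited without normalization, and featureCounts and bedtools are named per the submitters' processing notes. For their versions, the aligner, the genome build and the method of naming new entries the status is: not given in the sources used here. Further, the sequences of the entries were not used here. The prefix itself is not printed in member names.

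The 2 columns that equal a group mean were left out, as the rule for the members states. Levels are CPM of the column total with SD. Tests used the quasi-likelihood method of edgeR 4.0.16 under R 4.3.3 on all entries that passed its default filter, scaled by TMM, with Benjamini-Hochberg adjustment over all of them and calls at an adjusted p under 0.05. TMM factors ran from 0.595 in CAPUT-R 1 to 1.41 in TESTIS-R 2, so fitted changes differ from ratios of printed levels. The SE printed with a log2 change was derived from that change and the F statistic of its test, and was not estimated separately. A fold against a group at 0 counts is a bound from 3 counts over that group. The fits were run on simulated data with known changes, drawn with the same spread for every entry. Swings and gaps like those of the members were not simulated, so that run cannot show how the fits behave on such rows.

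Named members were the 8 of highest mean, the 4 highest of each name form, the 4 largest non-overlapping calls per tissue comparison and direction, in each season comparison up to 4 non-overlapping calls per direction or else the 2 smallest p, 2 members each side of the threshold, and the 3 with the largest share in each tissue. Members of large swings or gaps, and those set beside a mouse-named row, were named outside this rule after their values were seen. Members, lists and the rule were chosen with earlier results of these data known. Alternatives were library totals, DESeq2 size factors, no filter, DESeq2 1.42.0, averaged columns kept, a replicate block, 1 fit of all libraries, 1 season alone, NR libraries numbered 3 left out, and leaving out each library. Replicates are biological per the labels, and p-values measure the spread between these libraries. Without molecular identifiers in the sources used here, intervals and limits cover counting error only.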

Additional observations from a re-analysis of the deposited data

How the results depend on the processing

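Of 69 counts of called members under settings other than leaving out 1 library, 49 stayed within 1.5 times the reported count, and 0 calls changed sign under any setting. DESeq2 called 3 members in the testis and 6 in the caput between seasons, where 0 were reported, 10 in the cauda, where 3 were, and 8, 12 and 9 in the interactions TESTIS minus CAPUT, TESTIS minus CAUDA and CAUDA minus CAPUT, where 0 were. With averaged columns kept, 1 member was called between seasons in TESTIS, 1 in CAPUT and 1 for the interaction TESTIS minus CAPUT. The 3 season calls in the cauda became 1 with no filter, 0 with a replicate block and 0 in 1 fit of all libraries. Between seasons the block joined libraries of different collection dates by number alone, so its result says little about these calls. NR libraries alone gave 0 calls in TESTIS minus CAPUT. The 11 calls in CAPUT minus CAUDA became 6 with library totals, 7 with no filter, 7 with a replicate block, 6 in 1 fit of all libraries, 7 with R libraries alone, 6 with NR libraries alone and 5 without the NR libraries numbered 3. Leaving out 1 library gave 0 to 0 calls between seasons in the testis and the caput, 0 to 10 in the cauda, 29 to 37 in TESTIS minus CAPUT, 31 to 36 in TESTIS minus CAUDA, 6 to 12 in CAPUT minus CAUDA, and 0 to 1 in each interaction. The cause of these shifts was not tested. Of 24 named calls, 8 were called under every alternative. Over all named results and alternatives, 514 values kept their side of the threshold, 65 lost a call, 13 gained one and 0 reversed. Replicate numbers were not taken to pair the libraries: the correlations of deviations of same-numbered libraries ran from -0.17 to 0.28, and not all of them were over 0.1 in any comparison (0.088 to 0.177 between caput and cauda). The replicate block gave 39 and 32 calls in TESTIS minus CAPUT and TESTIS minus CAUDA and 0 between seasons in testis or caput and for each interaction. A library correlated best with its own number in 9 of 10 cases between testis and caput, 5 of 10 between testis and cauda and 10 of 10 between caput and cauda, a hint of pairing from the data and not from the design. These cases are not independent of each other. Each pair of groups was scored from both sides, and in groups of 2 libraries the deviations are exact opposites. Selection by TMM-scaled CPM gave 100 members, 99 of them shared, and with averaged columns kept 104, 101 shared. Groups of 2 libraries and the lower totals of the testis limit what low members can show.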
